A study of Rattus norvegicus with 28 samples.

Results

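Pou3f1 is a transcription factor of the POU class III family, known also as SCIP and Oct6. Its RNA was followed here in rat hepatocytes exposed to a dioxin or to either of a pair of furans. Members were all non-control probes that carry the gene name Pou3f1, kept apart by probe, rat and dye orientation. There was 1 such probe, A_42_P493301, among 41012 non-control probes on the array. The gene was chosen by its measured log2 ratios across all 7 groups of these data, so its own values are given as a description and without a test.

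Primary hepatocytes of 2 female Sprague-Dawley rats, both adult and called A and B, were kept on Matrigel for 48 h with 0.1 uM dexamethasone, insulin, transferrin and selenium. They were then left for 24 h untreated, with TCDD at 0.01 or 1 nM, with TCDF at 0.1 or 10 nM, with PeCDF at 0.02 or 2 nM, or with the solvent DMSO alone at 0.1%, which all compound groups also received. TCDD is a chlorinated dibenzodioxin, TCDF the dibenzofuran chlorinated at the same numbered positions, and PeCDF a dibenzofuran with an additional chlorine. RNA of 3 dishes of a rat was pooled, and each RNA was hybridised with DMSO RNA of the same rat on 2 arrays with the dyes swapped, which gave 4 arrays per group and 28 in all. The 2 arrays of a rat were averaged to 1 replicate, so that n = 2 rats in every group. The RNA is that of a whole culture, in which more cells of a type and more RNA per cell cannot be told apart.

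POU factors bind DNA through a POU-specific domain joined to a homeodomain. Pou3f1 is best known from Schwann cells, where cyclic AMP signalling induces it and it helps to switch on Egr2 and with it the myelin genes. It is also made in differentiating epidermis and in the embryonic precursors of neurons, and hepatocytes are not among the cells it is known for. TCDD, TCDF and PeCDF are ligands of the aryl hydrocarbon receptor (AHR), which pairs with ARNT on DNA and switches on the AHR battery, a group of genes led by Cyp1a1, Cyp1a2 and Cyp1b1.

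Pou3f1 was higher in TCDD 1 nM cells than in DMSO cells on all 4 arrays. The log2 ratio, test RNA over DMSO RNA, was 1.77 and 2.05 on the arrays of rat A and 1.52 and 1.44 on those of rat B. The mean was 1.69 ± 0.305 (SD, n = 2 rats), or 3.23-fold. These 4 values lay above all 24 values of the other groups, which ran between -0.05 and 0.75.

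Both furans at their upper doses also had more Pou3f1 RNA than DMSO cells. With PeCDF 2 nM the log2 ratios were 0.56 and 0.75 in rat A and 0.43 and 0.73 in rat B, with a mean of 0.62 ± 0.0538 (n = 2), or 1.53-fold. With TCDF 10 nM they were 0.54 and 0.13 in rat A and 0.27 and 0.35 in rat B, with a mean of 0.32 ± 0.0199 (n = 2), or 1.25-fold. All 8 arrays were above 0, and the arrays of the furans overlapped each other while the means of the rats did not. The working description of Pou3f1 as selective for TCDD is therefore one of size: the response was larger with TCDD, and it was not absent with the furans. The doses differed, TCDF having been given at 10 times and PeCDF at 2 times the concentration of TCDD, so the values stand side by side and are not a comparison at equal dose.

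**Figure D1:**
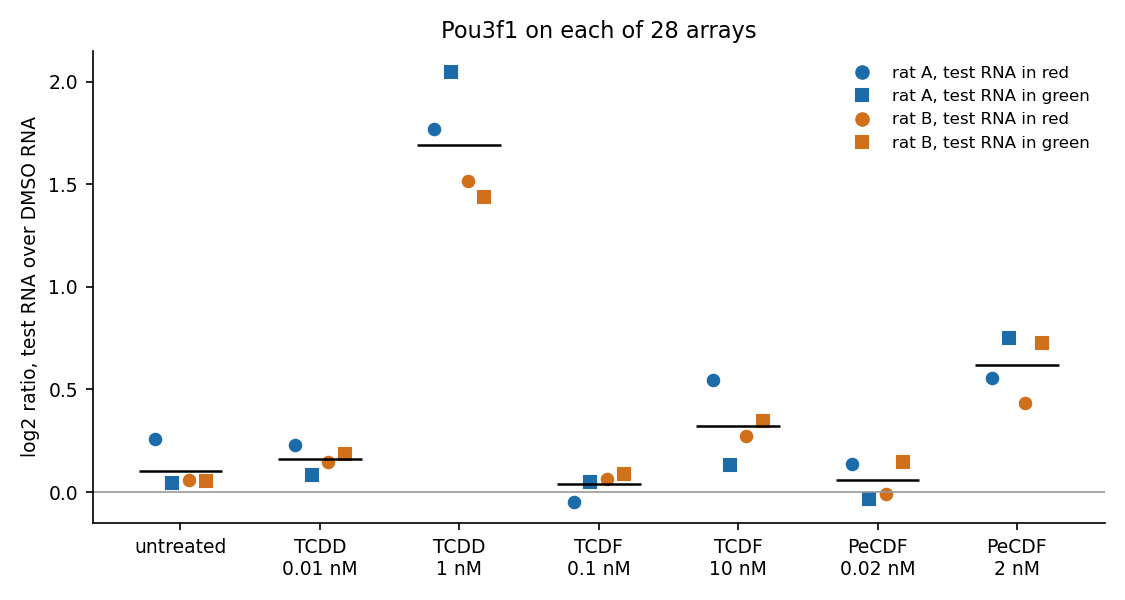
Log2 ratio of Pou3f1, test RNA over DMSO RNA, on each of the 28 arrays by group. Colour marks the rat, shape the dye orientation, and the black line the mean of 4 arrays. The 4 arrays of TCDD 1 nM lie between 1.44 and 2.05, above all others, and the 8 arrays of the upper furan doses lie between 0.13 and 0.75.

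The other groups were near 0. TCDD 0.01 nM had 0.23 and 0.08 in rat A and 0.14 and 0.18 in rat B, with a mean of 0.16 ± 0.00655 (n = 2). Untreated cells had 0.26 and 0.04 in rat A and 0.06 and 0.05 in rat B, with a mean of 0.10 ± 0.0672 (n = 2). All 4 ratios of the TCDD 0.01 nM cells lay within the range of the untreated cells, but only through the untreated array at 0.26. The other untreated arrays lay between 0.04 and 0.06, below those of TCDD 0.01 nM. PeCDF 0.02 nM averaged 0.06 ± 0.0129 and TCDF 0.1 nM 0.04 ± 0.0529 (n = 2 each), with 2 and 3 of their 4 arrays above 0. In the order of the means, TCDD 1 nM, PeCDF 2 nM and TCDF 10 nM stood apart from the next lower group in the values of the rats, which did not overlap. This separation was lost for TCDF 10 nM with Agilent's own log ratio, where its rats had 1.15 and 0.79 and untreated cells 0.81 and 0.39, and with normexp and no offset, where they had 0.81 and 1.01 against 0.60 and 0.84 with TCDD 0.01 nM. Taken by array, TCDF 10 nM (0.13 to 0.54) overlapped TCDD 0.01 nM (0.08 to 0.23) and the untreated array at 0.26. The lower 4 groups were not ordered, since the arrays of each overlapped those of the next. By rat, TCDD 0.01 nM (0.155 and 0.164) stood barely apart from untreated cells (0.152 and 0.057).

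The spot was dim in both channels outside TCDD 1 nM. Signal minus local background with TCDD 1 nM was 351 and 204 scanner units in rat A and 211 and 91.1 in rat B, against 46.5 and 28.9 for DMSO RNA of rat A and 32.8 and 20.6 for that of rat B on the same arrays. PeCDF 2 nM spanned 43.8 to 64.8 against 11.3 to 30.5 for DMSO, and TCDF 10 nM 36.3 to 58.6 against 17.5 to 31.9 for DMSO. In these 3 groups the test channel did not overlap the DMSO channel, before any scaling of the dyes. In the other 4 groups the test channel spanned 8.33 to 30.3 and the DMSO channel 9.14 to 28.1, and the channels overlapped.

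**Figure D2:**
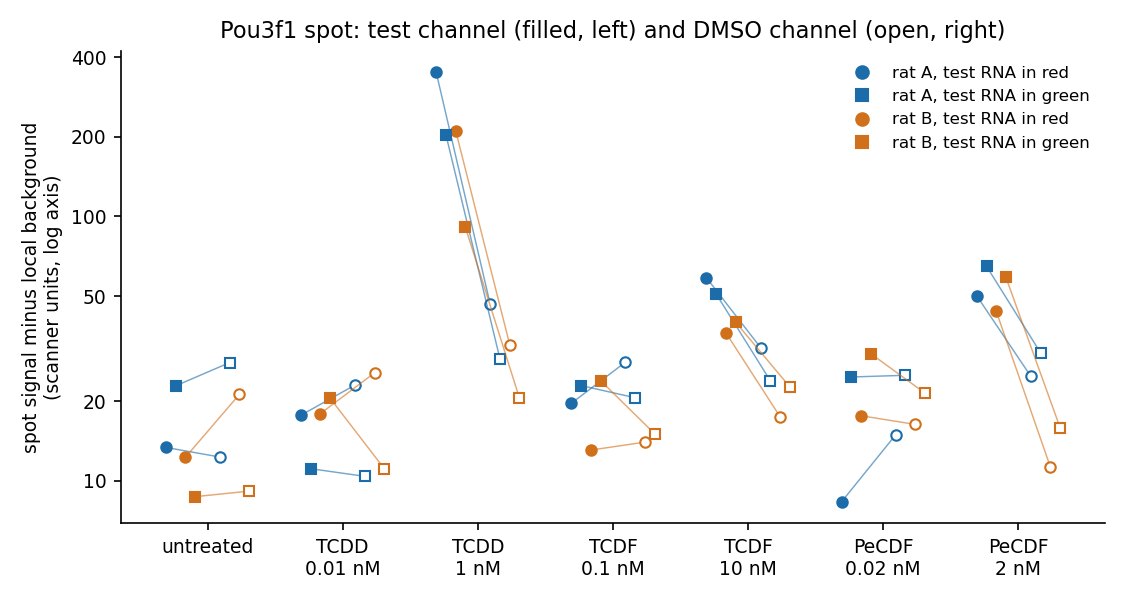
Signal of the Pou3f1 spot minus its local background, in scanner units on a log axis, with the test channel at left (filled) and the DMSO channel of the same array at right (open). With TCDD 1 nM the test channel lay between 91.1 and 351; the upper furan doses lay between 36.3 and 64.8.

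The scanner software called Pou3f1 well above background in the test channel on 22 of 28 arrays and in the DMSO channel on 22 of 28. All 12 test channels of the upper doses were among them, and 1 of 4 test channels of untreated cells. No Pou3f1 spot was saturated or marked as irregular. After scaling between arrays, the log2 level averaged 8.01 ± 0.396 with TCDD 1 nM (n = 2), 6.74 ± 0.0675 under PeCDF 2 nM and 6.51 ± 0.152 under TCDF 10 nM, against 6.32 ± 0.0913, 6.12 ± 0.0137 and 6.18 ± 0.133 for the DMSO RNA on their own arrays. The DMSO level was thus highest on the arrays of TCDD 1 nM, and elsewhere its group means lay between 5.98 and 6.18.

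The size of the Pou3f1 response depended on how background was handled, while the order of the upper doses was the same in each case tried. With Agilent's own log ratio, TCDD 1 nM averaged 2.73 ± 0.122 (6.62-fold), PeCDF 2 nM 1.48 ± 0.158 (2.80-fold) and TCDF 10 nM 0.97 ± 0.256 (1.96-fold). Plain subtraction gave 2.73, 1.46 and 0.99 for the same groups. With no background correction the values were 0.62, 0.16 and 0.11, and with normexp but no offset 3.04, 1.73 and 0.91. An offset, added to both channels, draws the ratio of a dim spot towards 0 by its construction. Under each of these 5 treatments TCDD 1 nM was the highest group and PeCDF 2 nM the second, with TCDF 10 nM the third.

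**Figure D3:**
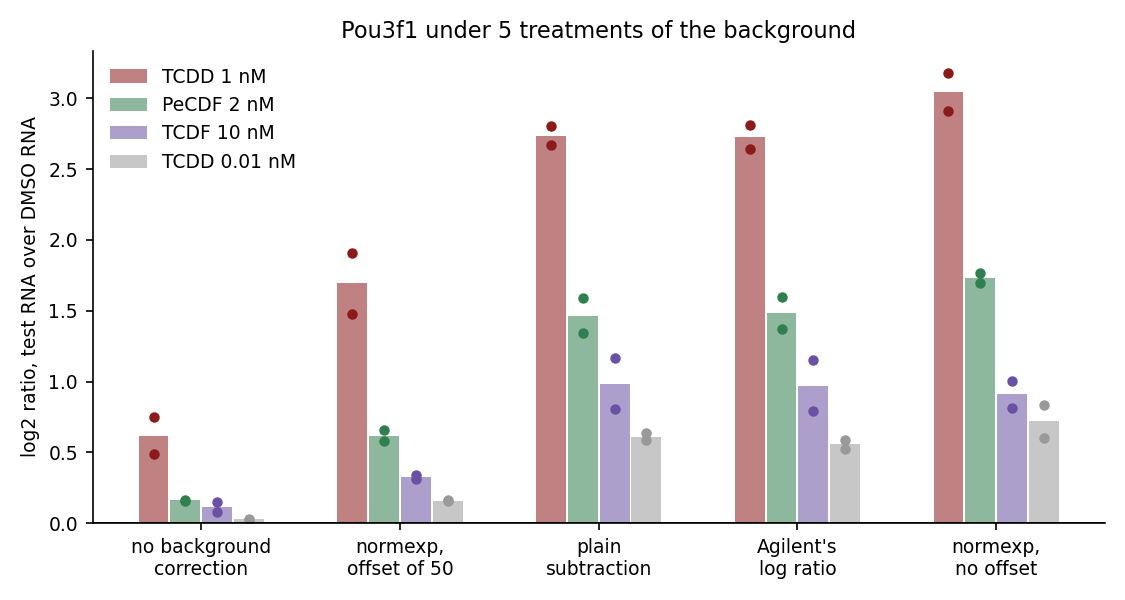
Mean log2 ratio of Pou3f1 (bars, from 0) with the 2 rats as points, for 4 groups under 5 treatments of the background. TCDD 1 nM ranges between 0.62 with no correction and 3.04 with normexp and no offset, and remains above the furans in each.

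Few genes stood higher than Pou3f1 with TCDD 1 nM. Of 34843 genes measured there, 12 had a higher mean log2 ratio. With PeCDF 2 nM 53 of 34828 genes had a higher one, and with TCDF 10 nM 281 of 34837. With TCDD 0.01 nM 1001 genes did, and with untreated cells 2271. For scale, the fit across all genes with limma called 10.6% of genes in TCDD 1 nM cells, 4.39% in PeCDF 2 nM cells and 2.36% in TCDF 10 nM cells (adjusted p under 0.05). Between TCDD 1 nM and the furans it called 0.847% against PeCDF 2 nM and 0.0632% against TCDF 10 nM. Pou3f1 takes no support from these shares, since it was chosen for those contrasts.

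The furan response of Pou3f1 was set beside that of other genes that TCDD raised. Among genes with a log2 ratio of at least 1 with TCDD 1 nM, the log2 ratio of Pou3f1 with TCDF 10 nM was 19.1% of that with TCDD, against a median of 56.0% over 33 genes. Only 1 of them, Ereg, had a lower percentage. With PeCDF 2 nM the figure for Pou3f1 was 36.5%, against a median of 52.7% over 31 genes, 5 of which were lower. With Agilent's own log ratio these figures were 35.6% with TCDF 10 nM, against a median of 50.4% over 49 genes with 5 lower, and 54.4% with PeCDF 2 nM, against a median of 53.9% over 47 genes with 25 lower. Pou3f1 was thus below the median for TCDF under both, and for PeCDF at the middle of the list under Agilent's ratio. With normexp and no offset Pou3f1 stood at 29.9% with TCDF, against a median of 35.0%, with 36 of 81 genes lower, and at 56.8% with PeCDF, against a median of 40.4%, with 54 of 79 lower.

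**Figure D4:**
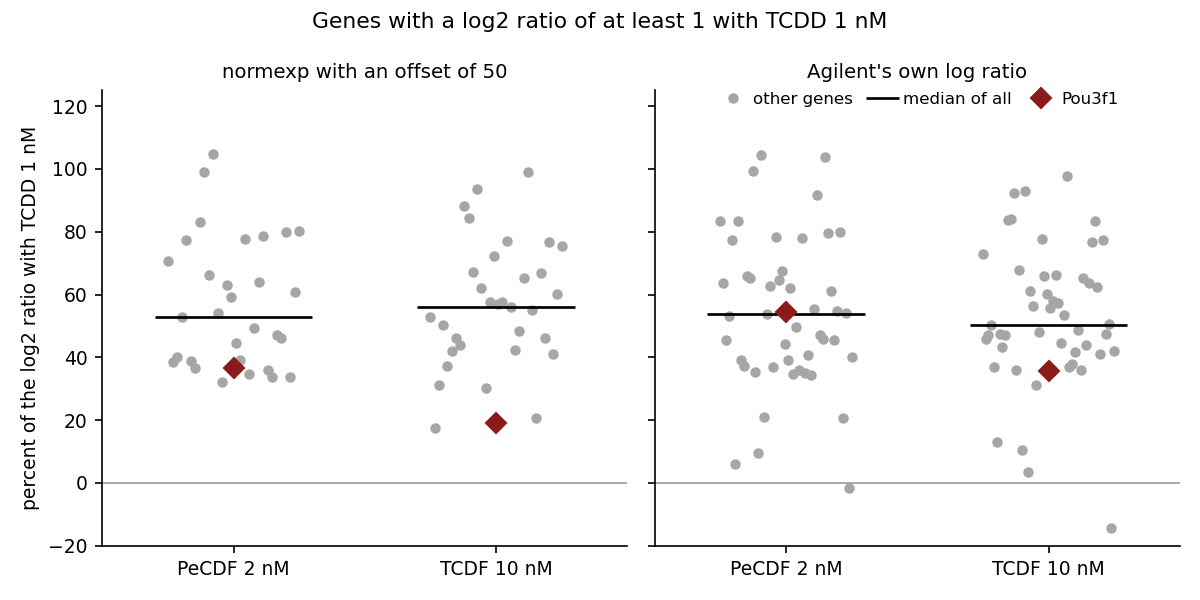
Log2 ratio with each furan as a percentage of that with TCDD 1 nM, for genes with a log2 ratio of at least 1 with TCDD, under normexp with an offset of 50 (left) and Agilent's own log ratio (right). With TCDF 10 nM Pou3f1 (diamond) lies at 19.1% and 35.6%, below the medians (lines) of 56.0% and 50.4%.

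TCDD and untreated arrays were read by the scanner software in a first session and the furan arrays in a second, so compound and session cannot be told apart. The other 8 arrays of the first session, of untreated and TCDD 0.01 nM cells, had Pou3f1 log2 ratios of 0.04 to 0.26. Within a session the dye orientation coincided with the day of reading. TCDD 1 nM averaged 1.64 with the test RNA in red and 1.74 with it in green, PeCDF 2 nM 0.50 and 0.74, and TCDF 10 nM 0.41 and 0.24. With TCDF 10 nM the rats differed in direction: rat A had 0.54 in red and 0.13 in green, and rat B 0.27 and 0.35. The order of the 3 group means was the same in both orientations.

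Genes with a response like that of Pou3f1 were sought over the 14 rat-level log2 ratios of 7 groups, among the 132 genes with a symbol whose group means spanned at least 1 log2 unit. The points share DMSO RNA within a rat, and the 2 points of TCDD 1 nM carry much of each correlation, so r is given as a description. The 10 genes most like Pou3f1 were Ereg (r = 0.98), Areg (0.93), Nfe2l2 (0.92), Map3k8 (0.92), Cxcl3 (0.91), Selenbp1 (0.88), Cyp1b1 (0.88), Ddit4l (0.87), Tiparp (0.86) and Gdf15 (0.86). With Agilent's own log ratio 7 of these 10 were again among the 10 most like, and with Spearman's rank correlation 3.

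Ereg and Areg encode epiregulin and amphiregulin, ligands of the epidermal growth factor receptor. Ereg had log2 ratios of 3.03 in rat A and 2.55 in rat B with TCDD 1 nM, 1.52 and 0.62 with PeCDF 2 nM, then 0.68 and 0.30 with TCDF 10 nM. With the offset of 50 its furan values were, as with Pou3f1, small beside that of TCDD, at 38.4% with PeCDF and 17.6% with TCDF. With Agilent's own log ratio they were 63.7% and 45.8%. The Ereg spot was well above background in the test channel on 19 of 28 arrays and in the DMSO channel on 16. Areg had 2.63 and 2.31 with TCDD 1 nM, 1.54 and 0.44 under PeCDF 2 nM, and 0.99 and 0.54 under TCDF 10 nM. In both ligands rat A was higher than rat B in each of these 3 groups.

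Nfe2l2, the transcription factor NRF2 of the antioxidant response, averaged 1.25 ± 0.0240 with TCDD 1 nM, 0.62 ± 0.0103 under PeCDF 2 nM and 0.53 ± 0.0199 under TCDF 10 nM (SD, n = 2 each). With TCDD 0.01 nM it had 0.35 in rat A and 0.61 in rat B, which overlapped 0.53 and 0.12 in untreated cells. Map3k8, a kinase of inflammatory signalling, had 1.88 ± 0.598, 0.69 ± 0.432 and 0.87 ± 0.442 with the upper doses in the same order. Cxcl3, a neutrophil attractant that the array design names Gm1960, had 1.16 ± 0.0734, 0.39 ± 0.163 and 0.24 ± 0.245, but another probe of this gene had -0.01 with TCDD 1 nM and was too dim to be kept.

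**Figure D5:**
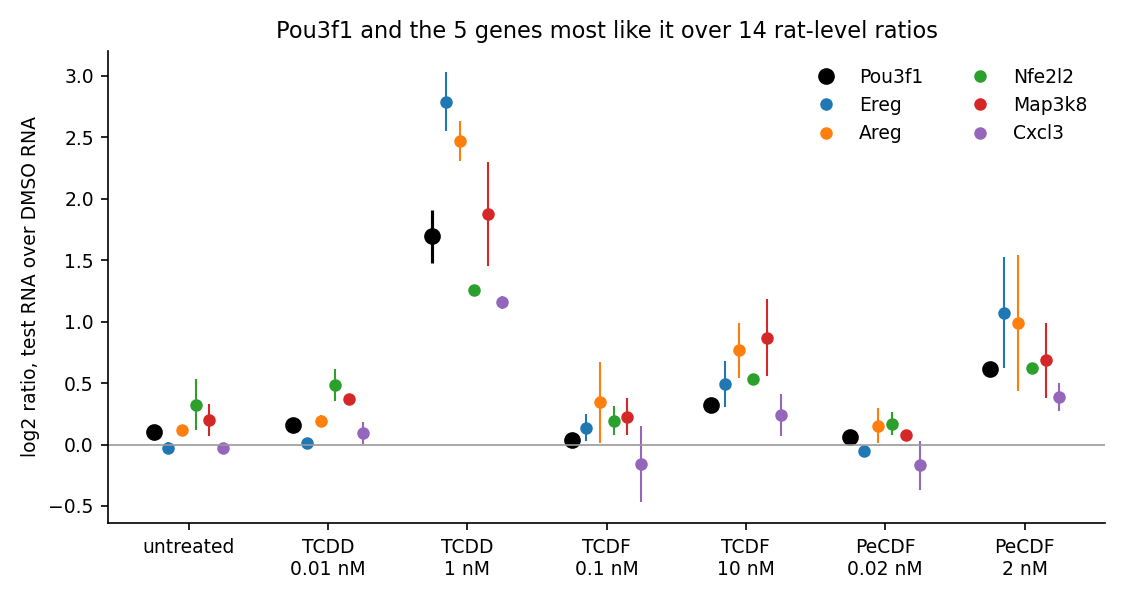
Mean log2 ratio of Pou3f1 and of the 5 genes most like it, by group, with vertical lines from rat A to rat B. All 6 are highest with TCDD 1 nM, Pou3f1 at 1.69 and Ereg at 2.79, and the bars of Ereg, Areg and Map3k8 with PeCDF 2 nM are wider than that of Pou3f1.

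With the offset of 50, Selenbp1, Ddit4l, Gdf15 and Tiparp had larger furan responses relative to TCDD than Pou3f1, as Areg and Nfe2l2 also had. With Agilent's own log ratio Gdf15, Areg and Nfe2l2 were below Pou3f1 for PeCDF 2 nM, at 45.6%, 45.5% and 49.5% against 54.4%. Selenbp1, Ddit4l and Tiparp remained above it, at 62.7%, 64.6% and 83.4%. Selenbp1, a selenium-binding protein with methanethiol oxidase activity, averaged 1.47 ± 0.156 with TCDD 1 nM, 0.92 ± 0.213 under PeCDF 2 nM and 0.84 ± 0.0817 under TCDF 10 nM. Ddit4l, an inhibitor of mTORC1, had 1.23 ± 0.0274, 0.79 ± 0.00301 and 0.80 ± 0.158 in that order. Gdf15, a stress-induced cytokine, had 0.89 ± 0.0900, 0.40 ± 0.101 and 0.52 ± 0.118. Tiparp, an ADP-ribosyltransferase that AHR induces and that acts back on AHR, had 1.84 ± 0.867, 1.53 ± 0.482 and 0.80 ± 0.0684, with rats A and B at 2.45 and 1.22 under TCDD 1 nM.

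Cyp1b1, a cytochrome P450 of the AHR battery, was represented by probes that disagreed. Its brighter probe averaged 3.93 ± 0.143 with TCDD 1 nM, 2.78 ± 0.440 under PeCDF 2 nM and 2.07 ± 0.0460 under TCDF 10 nM. Its other probe had 1.62 ± 0.304, 0.56 ± 0.104 and 0.33 ± 0.0447, close to the Pou3f1 values in these groups, and r = 0.98 with Pou3f1. The furan percentages of the TCDD log2 ratio were 70.7% and 52.8% by the first probe, and 34.7% and 20.5% by the second. The first probe was well above background in the test channel on 23 of 28 arrays and in the DMSO channel on 24. The second was so in both channels on all 28. A classical AHR target thus showed the proportions of Pou3f1 by 1 of its probes and not by the other.

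Among the genes that ran most opposite to Pou3f1 were Zfp354a (r = -0.91), Pfkfb1 (-0.90), Angptl4 (-0.90) and Zfp189 (-0.89). Pfkfb1, the liver enzyme that sets the level of a glycolytic activator, averaged -1.63 ± 0.135 with TCDD 1 nM, -0.74 ± 0.0409 for PeCDF 2 nM and -0.94 ± 0.00271 for TCDF 10 nM. Angptl4, an inhibitor of lipoprotein lipase, had -1.46 ± 0.121, -0.50 ± 0.281 and -0.72 ± 0.0530. The zinc finger genes Zfp354a and Zfp189 had -1.69 ± 0.238 and -1.05 ± 0.209 with TCDD 1 nM. In these 4 genes the value with TCDF 10 nM was farther from 0 than that with PeCDF 2 nM, the other way round from Pou3f1.

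The core of the AHR response element, GCGTG, was looked for on both strands of RefSeq promoters in the GRCr8 assembly, 250 bases before to 50 after the gene start. It was found in 29.7% of 33469 promoters of 300 bases. Of the 10 genes most like Pou3f1, 7 were read and 4 of these held it: Areg, Ddit4l and Tiparp once and Cyp1b1 at 2 places. The promoters of Pou3f1, Ereg, Cxcl3 and Selenbp1 were not analysed here. A match describes letters and not a bound site. The promoters of the receptor ligand Areg, which lies near the top of the ranking, and of the AHR targets Cyp1b1 and Tiparp are shown 5′ to 3′, with the core or its reverse complement in capitals. The first capital lies at -94 from the gene start in Areg, at -81 and -20 in Cyp1b1 and at -136 in Tiparp.
Areg, chr14:17265592-17265891, strand minus: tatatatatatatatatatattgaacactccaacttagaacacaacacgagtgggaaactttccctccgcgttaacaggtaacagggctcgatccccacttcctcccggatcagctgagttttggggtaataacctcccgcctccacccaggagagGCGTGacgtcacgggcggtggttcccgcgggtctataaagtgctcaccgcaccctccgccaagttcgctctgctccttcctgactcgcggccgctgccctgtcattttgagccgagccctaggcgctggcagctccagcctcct
Cyp1b1, chr6:21094315-21094614, strand +: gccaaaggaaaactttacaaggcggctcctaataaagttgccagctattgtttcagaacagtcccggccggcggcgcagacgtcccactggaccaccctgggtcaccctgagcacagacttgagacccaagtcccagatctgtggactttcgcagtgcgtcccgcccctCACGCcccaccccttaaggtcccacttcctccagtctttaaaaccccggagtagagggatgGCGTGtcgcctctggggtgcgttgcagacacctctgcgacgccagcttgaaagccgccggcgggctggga
Tiparp, chr2:152063519-152063818, strand +: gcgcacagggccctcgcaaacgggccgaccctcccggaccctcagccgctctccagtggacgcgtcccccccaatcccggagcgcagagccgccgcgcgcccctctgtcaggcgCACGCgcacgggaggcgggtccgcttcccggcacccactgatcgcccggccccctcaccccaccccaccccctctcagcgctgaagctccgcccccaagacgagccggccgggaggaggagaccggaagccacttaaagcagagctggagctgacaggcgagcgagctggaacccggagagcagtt

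The AHR battery, the best known response to these compounds, was set beside Pou3f1. All 10 measured battery genes of 11 listed rose with TCDD 1 nM, 8 rose under PeCDF 2 nM and 7 under TCDF 10 nM, against 4.63%, 1.72% and 1.11% of all genes called higher. Their median log2 ratios were 1.62, 1.36 and 1.15, against medians of all genes of -0.00, -0.00 and 0.00. Nqo1, a quinone reductase, had 1.54 ± 0.183, 1.61 ± 0.183 and 1.44 ± 0.183 (here and in later paragraphs, standard errors of the limma fit). The SD between the rats was 0.666, 0.102 and 0.0394 in the same order. Cyp1a2, an oxidase of aromatic amines, had 1.82 ± 0.122, 1.80 ± 0.122 and 1.60 ± 0.122, with 9 arrays saturated, while another probe of this gene had 2.29, 2.20 and 2.48. Cyp1a1, the oxidase most used to gauge AHR activity, was saturated on 20 of 28 arrays, and its ratios are not set beside that of Pou3f1.

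No other measured POU gene passed the test. Of 15 listed relatives 11 were measured, and with limma none was called under any upper dose (10.6%, 4.39% and 2.36% of all genes with TCDD, PeCDF and TCDF). In the same order 0, 1 and 0 had an unadjusted p under 0.05. Over all genes these were 8022 of 34843, 6033 of 34828 and 4398 of 34837. Their log2 ratios with TCDD 1 nM lay between -0.08 and 0.06, with a median of -0.01, against 1.69 for Pou3f1. Only 7 of these 11 relatives were well above background in the test channel of all arrays. The offset draws the ratio of a dim spot towards 0. Small values of the dim relatives therefore cannot show that these genes did not respond. The members of the same class, neural factors called Brn in older work, had -0.04 ± 0.0425 (Pou3f2), -0.01 ± 0.0476 (Pou3f3) and 0.06 ± 0.0411 (Pou3f4) with TCDD 1 nM. Pou2f1 and Pou2f2, the widely expressed and the lymphoid octamer factors, had 0.01 ± 0.0689 and 0.05 ± 0.0400, and Pou5f1, the pluripotency factor, -0.02 ± 0.0446. Pou2f3 (0.02), Pou4f1 (-0.04), Pou4f2 (-0.08), Pou4f3 (0.06) and Pou6f1 (-0.02) completed the measured members. The probe of Pou1f1 was too dim to be kept, and Pou2af1 and Pou5f2 were not analysed here.

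None of the measured neighbours of Pou3f1 on its chromosome was called higher with TCDD 1 nM, against 4.63% of all genes. Among the 5 named genes on either side in the RefSeq gene table, 7 of 10 were measured. With TCDD 1 nM 1 of these passed the test, Inpp5b, an inositol phosphate phosphatase, which was lower at -0.21 ± 0.0575 (adjusted p = 0.0442), with -0.08 in rat A and -0.34 in rat B, against 5.92% of all genes called lower. Rragc, a GTPase of nutrient sensing and the nearest measured gene on one side, had -0.33 ± 0.143, and Utp11, a ribosome assembly factor on the other, 0.05 ± 0.0575, neither of which passed. Fhl3 (0.06), Rhbdl2 (-0.02), Sf3a3 (-0.28) and Mtf1 (-0.02) did not pass either. With the upper furan doses none of the 7 passed, against 4.39% of all genes with PeCDF 2 nM and 2.36% with TCDF 10 nM. An unadjusted p under 0.05 was found for 2 of the 7 with TCDD 1 nM and for 1 with each furan. Over all genes these were 8022 of 34843 with TCDD, 6033 of 34828 with PeCDF and 4398 of 34837 with TCDF.

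Genes that work with Pou3f1 in other tissues were read from lists. Of 24 measured genes of Schwann cell myelination, 2 rose and none fell with TCDD 1 nM, against 4.63% of all genes called higher and 5.92% lower, with a median of -0.00. They were Nrg1, the neuregulin that signals to Schwann cells, at 0.83 ± 0.104 (adjusted p = 0.000723), and Hdac2, a histone deacetylase, at 0.20 ± 0.0294 (0.00168). Another probe of Nrg1 had 0.41. Nrg1 also rose with PeCDF 2 nM (0.52 ± 0.104, adjusted p = 0.0212) and had 0.34 ± 0.104 with TCDF 10 nM, which did not pass. Each furan called 2 genes of this list higher, against 1.72% of all genes with PeCDF 2 nM and 1.11% with TCDF 10 nM: Nrg1 and Yy1, a general transcription factor, under PeCDF 2 nM, and Pmp22, a myelin protein, and Nab1, a partner of Egr2, under TCDF 10 nM. Egr2, the Schwann cell target of Pou3f1, had 0.08 ± 0.104 with TCDD 1 nM, which did not pass; it was picked out after its value was seen.

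Of 18 measured genes of epidermal differentiation, 1 passed with TCDD 1 nM, against 10.6% of all genes. It was Klf4, a transcription factor of the skin barrier, which rose by 0.80 ± 0.0697 (adjusted p = 8.28e-05). Klf4 rose also with PeCDF 2 nM, at 0.39 ± 0.0697, and had 0.23 ± 0.0697 with TCDF 10 nM, which did not pass. Of 16 measured neural transcription factors none passed with the 3 upper doses, against 10.6%, 4.39% and 2.36% of all genes. An unadjusted p under 0.05 was found for 0, 1 and 0 of them with TCDD, PeCDF and TCDF. Over all genes these were 8022 of 34843, 6033 of 34828 and 4398 of 34837.

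Of 21 measured genes that cyclic AMP induces in various tissues, 1 rose and 4 fell with TCDD 1 nM, against 4.63% of all genes called higher and 5.92% lower, with a median of 0.01. Dusp1, a phosphatase of MAP kinases, fell by 0.91 on the log2 scale and G6pc1, the glucose-releasing phosphatase of gluconeogenesis, fell by 0.83. Another probe of G6pc1 had -0.14. Sik1, a salt-inducible kinase, fell by 0.18, and the fourth was Ppargc1a, a coactivator of fasting metabolism, at -0.15. Btg2, an inhibitor of proliferation, was higher at 0.42 ± 0.0935, a value from rat A alone since rat B lacked it after marked spots were dropped. Dusp1 had 0.03 under PeCDF 2 nM and -0.09 under TCDF 10 nM, and passed with neither.

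Of 24 measured interferon response genes, 3 rose and 1 fell with TCDD 1 nM, against the same 4.63% and 5.92%, with a median of -0.07. Rsad2, the antiviral protein viperin, rose by 0.80 ± 0.145, Cxcl10, a T cell attractant, by 0.50 ± 0.0729 and Gbp2, a guanylate-binding protein, by 0.36 ± 0.0658, and Ifi35 fell by 0.14. Another probe of Rsad2 had 0.22. Rsad2 rose with PeCDF 2 nM and TCDF 10 nM too, at 0.73 and 0.70. Cxcl10 had -0.08 and -0.11 in these groups, which did not pass.

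Markers of the cells in the culture were read beside Pou3f1. All 16 hepatocyte markers were well above background in the test channel of all 28 arrays, and 1 rose (Apob, 0.53) and 3 fell with TCDD 1 nM (Asgr1, -0.37; Cps1, -0.84; Cyp2c11, -0.40), against 4.63% of all genes called higher and 5.92% lower. The other 4 Apob probes had -0.07 to 0.03. Schwann cell markers, those of the cells in which Pou3f1 is best known, gave 0 calls of 8 measured of 10 listed with TCDD 1 nM. Of all genes 10.6% were called. The values of the 8 lay between -0.09 and 0.06, and 1 had an unadjusted p under 0.05, against 8022 of all 34843 genes. Their summed level, in normalized intensity units, was 807 to 871 in the test channels of TCDD 1 nM and 775 to 906 in the DMSO channels of the same arrays. Of 15 Kupffer cell and leukocyte markers 1 rose (Cd14, 0.64) and 4 fell (Lyz2, -0.60; C1qc, -0.50; Vsig4, -0.48; Cd163, -0.32; the same shares of all genes apply), with sums of 12286 to 17339 with TCDD 1 nM against 13371 to 18473 for DMSO. Other probes of these genes were nearer to 0, with 0.19 for Cd14, -0.25 for C1qc and -0.04 for Cd163.

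Of 14 stellate cell and fibroblast markers 3 fell with TCDD 1 nM (Lox, -0.91; Vim, -0.75; Tagln, -0.39), against 5.92% of all genes called lower, with sums of 3414 to 3715 against 3959 to 4460 for DMSO. Of 12 cholangiocyte markers 2 fell (Anxa13, -1.35; Prom1, -0.49), against the same 5.92%, with sums of 2584 to 2755 against 3063 to 3623 for DMSO. Other probes had -0.47 for Lox and -0.13 for Prom1. None of 9 endothelial markers of 12 listed passed, against 10.6% of all genes, with sums of 1370 to 2108 against 1327 to 2116 for DMSO. Of the 9, 3 had an unadjusted p under 0.05, against 8022 of all 34843 genes. Of the Kupffer cell and leukocyte markers, 14 of 15 were well above background in the test channel of all 28 arrays. The figures were 13 of 14 for stellate cells and fibroblasts, 10 of 12 for cholangiocytes, 6 of 9 for endothelium and 6 of 8 for Schwann cells. Each level held the offset of 50, so the sum of a list of dim genes moves little. None of these lists had a higher sum with TCDD 1 nM on all 4 arrays. The part of these other cells in the Pou3f1 result was not tested.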

How the data were processed

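Members and lists were chosen with earlier results of these data known. The deposited scanner files give, for each spot, a mean signal and a median local background as intensity, per the file headers; red is Alexa647 and green Alexa555. The log10 ratio of red over green, deposited by the authors in the same files, is background-subtracted and dye-normalized, and the deposited series table holds it turned to test over DMSO (it differed by at most 4.995e-06). Headers and submitters' processing notes (9.1) name different versions of Agilent Feature Extraction, and 4 days of reading were grouped into 2 sessions.

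Intensities were processed in limma 3.58.1 (R 4.3.3): normexp with an offset of 50, loess within arrays (2256 control spots at weight 0), marked spots dropped (1067, 0.0921%), and the 2 dye orientations of a rat averaged. A probe was kept when well above background in the test channel of all 4 arrays of a group or in the DMSO channel of at least 14 of 28 arrays. The brightest probe stood for each of 34845 gene names, 15257 with a symbol from the RefSeq gene table (GRCr8), which gave names and gene order only, since the files name no build; the coordinates printed are those of the RefSeq promoters in GRCr8. The 7 group means were fitted together with empirical Bayes (degrees of freedom 3.21 prior, 7 residual), and genes were called at 0.05 after Benjamini-Hochberg adjustment over all of them. Where a rat lacked a value (0.172% of values) the group rested on the other rat.

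Named genes were Pou3f1, all measured POU genes, the 10 most like and 5 most opposite genes, measured neighbours, and up to 4 called members of each list with the smallest p with TCDD 1 nM; a few of these are not reported here. The labels mark the same rats throughout, so the replicates are paired. Deviations of the same rat from the group means correlated between groups at -0.39 to 0.56 (median 0.13, 21 pairs of groups). Whether all arrays of a rat used the same DMSO preparation is not given in the sources used here. The small number of arrays limits the precision.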

Additional observations from a re-analysis of the deposited data

Results flagged for a closer look

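One value of Pou3f1 lay far from its group. Among the 4 untreated arrays, the log2 ratio of rat A with the test RNA in red was 0.26, and the other 3 arrays lay between 0.04 and 0.06. Neither channel of that spot was well above background. The 4 arrays are 2 rats in 2 dye orientations, and chance flags about 1 in 20 groups of this size, with 7 groups examined.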

How the results depend on the processing

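Of the alternatives, normexp without an offset was chosen after the data were seen, as was the furan share under each processing of the arrays. Pou3f1 is described with no call, so no call of it could change. The size of its ratios, their order among groups and its rank among other genes could. Its mean log2 ratio with TCDD 1 nM was 2.73 with Agilent's own log ratio and with the deposited series values, 2.73 with plain subtraction, 3.04 with normexp and no offset and 0.62 with no background correction. In the same order of settings it was 1.48, 1.46, 1.73 and 0.16 with PeCDF 2 nM, 0.97, 0.99, 0.91 and 0.11 with TCDF 10 nM, 0.56, 0.61, 0.72 and 0.026 with TCDD 0.01 nM, 0.60, 0.55, 0.52 and -0.0012 in untreated cells, and 0.25, 0.26, 0.42 and 0.0011 with PeCDF 0.02 nM. TCDF 0.1 nM had 0.11, 0.16 and 0.18 with the first 3. Median centring gave 0.12 with TCDD 0.01 nM and 0.037 with PeCDF 0.02 nM. With the test RNA in red, and then in green, alone, the value was 0.50 and 0.74 with PeCDF 2 nM, 0.41 and 0.24 with TCDF 10 nM and 0.19 and 0.13 with TCDD 0.01 nM. Leaving out either rat gave 1.48 to 1.91 with TCDD 1 nM, 0.58 to 0.66 with PeCDF 2 nM and 0.31 to 0.34 with TCDF 10 nM. The rank of the furan share changed with the background: with PeCDF, 5 of 31 genes were lower than Pou3f1 with the offset, 25 of 49 with plain subtraction and 54 of 79 with normexp and no offset, and with TCDF these were 1 of 33, 9 of 52 and 36 of 81.

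Counts of called genes moved too. Agilent's own log ratio called 736 genes with PeCDF 2 nM in place of 1530 and 421 with TCDF 10 nM in place of 823. It called 732 between TCDD 1 nM and TCDD 0.01 nM in place of 1303, 7 between TCDD 1 nM and PeCDF 2 nM in place of 295, and 2 between TCDD 1 nM and TCDF 10 nM in place of 22. No background correction gave 182 and 5 for the last 2 comparisons, and a stricter filter on dim probes 67 with TCDD 0.01 nM in place of 157. The first session alone gave 14 with TCDD 0.01 nM and 699 between the TCDD doses, and the second alone 471 with TCDF 10 nM, by construction with fewer samples in the fit. With the animal as a replicate block the pairing moved 1 count by over 1.5 times, TCDD 1 nM against TCDF 10 nM, to 36.

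Leaving out 1 rat of 1 group, with the lone rat assumed to vary like the other groups, gave 1595 to 3886 with TCDD 1 nM, 245 to 601 with TCDD 0.01 nM, 64 to 260 with TCDF 10 nM and 136 to 659 with PeCDF 2 nM. It gave 553 to 2388 between the TCDD doses. Between TCDD 1 nM and PeCDF 2 nM the count was 2295 without rat A of TCDD 1 nM and 6 without rat B of it. Between TCDD 1 nM and TCDF 10 nM it was 1771 without rat A of TCDD 1 nM and 3 without rat A of TCDF 10 nM. The cause of these moves was not tested. Of the 10 genes most like Pou3f1, 6 were shared with no background correction, 5 with a range of 0.5 log2, 7 with group means and 3 with Spearman's correlation. No other Pou3f1 probe existed to be tried, the stricter filter left Pou3f1 out, and signal over background limits its values.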
